A study of Mus musculus with 6 samples.

Results

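Lysosomes are acidic organelles in which hydrolases break down proteins, glycans, lipids and nucleic acids, and the vacuolar ATPase (V-ATPase) is the rotary proton pump that acidifies them. The genes described here are 37 members of that system, 21 encoding lysosomal proteins and 16 encoding V-ATPase subunits. They are the rows of the deposited count table whose Ensembl identifiers carry the listed symbols in GENCODE vM21, out of 49584 rows in all. All 37 were in the table, and 35 passed the filter on low counts. Scarb2 and Tpp1 did not.

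The cells were spermatocytes in leptotene and zygotene, stages of early meiotic prophase, isolated by FACS from mouse testes at postnatal day 12. Poly(A) RNA was copied and amplified by Smart-seq2, a full-length cDNA method for small cell inputs, and 3 libraries carry the genotype Srp68 SKO and 3 are wild type; no treatment is named. SRP68 belongs to the signal recognition particle, the ribonucleoprotein that directs ribosomes with a nascent signal peptide to the membrane of the endoplasmic reticulum (ER). The series title speaks of a Srp68 knockout, but the labels spell out neither SKO, nor a promoter or Cre that removed the gene, nor whether a library is 1 animal or a pool. The p-values therefore rest on the spread among these 6 libraries, part of which may be technical.

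Library totals ran from 14.3 to 15.4 M counts in wild type and from 11.9 to 12.7 M in SKO. Srp68 itself was at 21.7, 29.3 and 22.6 CPM (counts scaled to equal library size) in the wild type libraries and at 12.1, 6.52 and 6.93 CPM in the SKO libraries, with no overlap. Early meiotic markers (Ddx4, Dazl, Sycp1, Sycp2, Sycp3, Dmc1, Stra8 and Prdm9) summed to between 15280 and 18080 CPM in wild type and between 24390 and 30940 CPM in SKO, so the labelled cell type was present in every library. These 8 did not move alike: 7 were called higher, from Dazl (129% of wild type) to Stra8 (487%), and Ddx4 was called lower (80.7%). Of 10 macrophage markers, which bear on lysosomal genes since macrophages are rich in lysosomes, the sum was 1.80 to 2.88 CPM in wild type, 2.96 and 2.42 CPM in SKO replicates 1 and 2, and 52.9 CPM in SKO replicate 3. In SKO replicate 3, Lyz2 was at 25.2 CPM, and Csf1r, C1qb, C1qc, Mrc1, Cd14 and Ptprc were at 1.155 to 8.47 CPM. Not all markers were raised there: Cd68 was at 0.77 CPM, under wild type replicates 1 and 2 (2.13 and 1.45 CPM), and Adgre1 and C1qa were at 0.19 and 0.38 CPM. Counts of called genes are therefore also given without this library. Sertoli markers summed to 50.3 to 52.9 CPM in wild type and 52.8 to 71.0 CPM in SKO, and markers of the later pachytene stage to 453 to 547 CPM and 312 to 351 CPM. The pachytene sum was carried by Hspa2 (105% of wild type, not passed), while Ldhc, Piwil1, Clgn and Aurka were called lower, at 22.9, 24.8, 31.2 and 35.2% of wild type. Erythroid markers summed to 2.77 and 4.69 CPM in wild type replicates 1 and 2, to 136.7 CPM in wild type replicate 3 and to between 37.1 and 148 CPM in SKO, with Alas2 at 0 in all libraries. Myoid markers reached 2.36 CPM in wild type and 13.3 CPM in SKO, Leydig markers 6.60 and 9.87 CPM, with Cyp11a1 and Cyp17a1 at 0 in all libraries, and endothelial markers 3.53 and 3.91 CPM. The part of these marker differences in the results was not tested. In such bulk samples, fewer cells of a type and less RNA per cell cannot be told apart.

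Most lysosomal hydrolases and membrane proteins are made on ER-bound ribosomes, receive a mannose 6-phosphate tag or a sorting motif and are routed through the Golgi. The V-ATPase has a membrane-embedded V0 sector, through which protons pass, and a V1 sector that hydrolyses ATP and whose subunits are made in the cytosol. Many genes of this system are bound by TFEB, TFE3 and MITF, factors that recognise an E-box in promoters of what is called the CLEAR network. Promoter windows from RefSeq (build GRCm38.p6), which cover 250 bases before and 50 bases after a transcript start, were at hand for 29 of the 37 genes, in 33 windows. The E-box CACGTG, which reads the same on both strands, was in 12 of those 29 genes (41.4%) against 8.09% of all 27025 genes in the same table. The longer palindrome TCACGTGA, the core of the CLEAR motif, which contains that E-box, was in 7 of the 29 (24.1%) against 1.12% of all genes. By window, the shares were 36.4% against 7.15% for the E-box and 21.2% against 0.974% for the longer palindrome. These are matches of letters and not measured binding. The motifs were chosen because they are known from promoters of this system, so the shares describe these genes and are no test. The windows of all genes were not matched to those of the members in base composition.

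The following stretches show how the E-boxes (capitals) lie near the starts of 6 of these genes, 5′ to 3′ on the strand of each gene. They were chosen because they hold several E-boxes (Lamp1 and Atp6v0b) or the longer palindrome (Mcoln1, Ctsd, Gla and Atp6v1a). Positions are relative to the RefSeq start. In GENCODE vM21 the stretches of Mcoln1, Ctsd and Gla lie wholly within annotated exons, where exons of any gene were counted. That of Gla lies before the first base of Gla, so the exon there belongs to another gene. Those of Mcoln1, Ctsd and Atp6v1a lie downstream of the first base of the gene, so for these the annotations place the start differently. The stretch of Atp6v1a lies outside annotated exons.
Lamp1, chr8:13159061-13159160, plus strand: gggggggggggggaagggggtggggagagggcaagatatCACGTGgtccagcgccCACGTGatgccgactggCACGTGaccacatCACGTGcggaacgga
Atp6v0b, chr4:117887334-117887389, minus strand: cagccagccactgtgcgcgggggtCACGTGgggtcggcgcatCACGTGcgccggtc
Mcoln1, chr8:3500462-3500491, plus strand: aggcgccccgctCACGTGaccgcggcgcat
Ctsd, chr7:142387908-142387937, minus strand: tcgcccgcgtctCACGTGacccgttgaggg
Gla, chrX:134601215-134601244, minus strand: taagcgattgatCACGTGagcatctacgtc
Atp6v1a, chr16:44139372-44139401, minus strand: tttttttaaatCACGTGataggcttaacgt

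In the Lamp1 window the 4 E-boxes began 61, 45, 28 and 15 bases before the start. Those of Atp6v0b began 36 and 18 bases before it. Members with an E-box did not share 1 response: of the 12, 5 were lower, 1 was higher and 6 did not pass the test described next, and of the 15 tested members whose windows lacked it, 5 were lower, 1 higher and 9 did not pass. Of the 7 with the longer palindrome, 2 were lower, 0 higher and 5 did not pass. Among the 20 tested members without it, 8 were lower, 2 higher and 10 did not pass. Over all tested genes 14.4% were lower and 14.1% higher.

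The comparison asked how transcripts of these genes differed between SKO and wild type spermatocytes, with edgeR's quasi-likelihood test across 13474 genes and Benjamini-Hochberg adjustment over all of them. Of the 35 tested members, 13 fell, 2 rose and 20 did not pass at an adjusted p under 0.05. Across all tested genes, 14.4% were called lower and 14.1% higher, which is 1937 and 1901 genes. With library totals in place of TMM scaling the split over all genes was 3168 lower and 1010 higher, and 18 members were lower and 2 higher. The members' median log2 fold change (SKO over wild type) was −0.56, against −0.03 over all tested genes. This median depended on single libraries and on which members were tested: it was −0.30 without wild type replicate 3, −0.33 without wild type replicate 1, −0.36 without SKO replicate 2, −0.28 with no filter and −0.26 with DESeq2. Without SKO replicate 3, 13 members were lower, 12 of them among the same 13, and the same 2 were higher. In that fit 1449 of all 14509 tested genes were lower and 1418 higher. In 18 members every SKO library was below every wild type library, where 22.2% of all tested genes had that order, and in 3 every SKO library was above, where 21.6% did. The decreases were spread over both branches, with 7 of 19 lysosomal genes and 6 of 16 V-ATPase genes lower and 1 higher in each, but the medians were −0.70 and −0.07. After removal of trends with GC content and length they were −0.53 and −0.15, and with a replicate block as well −0.34 and −0.15. Median transcript GC content was 52.91% in the lysosomal and 49.05% in the V-ATPase genes. The part of GC content in this gap was not tested.

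**Figure D1:**
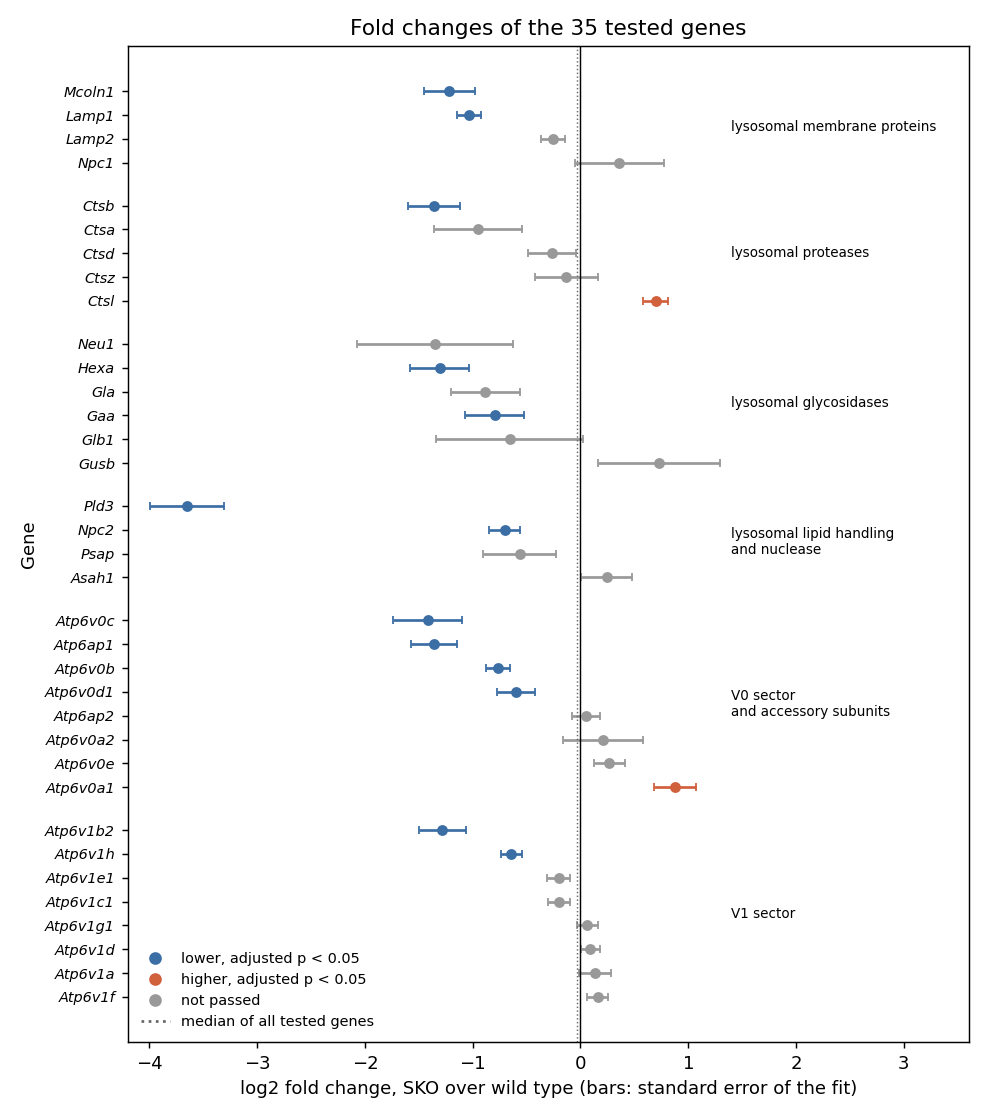
Log2 fold change, SKO over wild type (horizontal axis), of the 35 tested genes grouped by role, with bars for the standard error of the fit; blue marks an adjusted p under 0.05 and lower, red the same and higher, grey not passed, and the dotted line the median of all tested genes. Decreases reach −3.65 for Pld3, the 2 increases are Ctsl and Atp6v0a1, and 6 of 8 V1 genes lie between −0.20 and 0.16.

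Among lysosomal membrane proteins, 2 of 4 tested genes fell. Lamp1 (chromosome 8, 13159161 to 13175338, plus strand), a heavily glycosylated protein of the limiting membrane, stood at 213, 230 and 218 CPM in wild type replicates 1 to 3 and at 112, 114 and 97.1 CPM in SKO replicates 1 to 3. The groups lay far apart relative to their spread, and the mean in SKO came to 48.9% of that in wild type (220 ± 8.82 and 108 ± 9.27 CPM, SD, n = 3; log2 fold change −1.03, SE 0.11; edgeR adjusted p = 1.87e-05). Its partner Lamp2, which also serves chaperone-mediated autophagy, was at 207, 182 and 193 CPM and at 148, 162 and 177 CPM. Every SKO library was below every wild type library for Lamp2, but the difference did not pass (log2 fold change −0.26, SE 0.11; edgeR adjusted p = 0.105). It did pass with library totals in place of TMM scaling (−0.52; 0.00175) and after removal of trends with GC content and length (−0.73; 0.00014).

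Mcoln1, the gene of the calcium channel TRPML1, was at 25.3, 38.1 and 25.0 CPM in wild type and at 12.0, 14.9 and 11.2 CPM in SKO. No SKO library reached the lowest wild type value (log2 fold change −1.22, SE 0.24; edgeR adjusted p = 0.00162). Npc1, which exports cholesterol from the lysosome, was low and scattered at 3.09, 8.46 and 6.22 CPM against 9.63, 4.84 and 8.37 CPM. Its groups overlapped and its standard error of 0.41 exceeded its log2 fold change of 0.36.

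Scarb2, the receptor that carries glucocerebrosidase to lysosomes, had 0, 2 and 0 counts in wild type and 9, 18 and 10 counts in SKO libraries. The SKO counts were higher in each library but too few for the filter, so no fold is given. Of 8 alternative fits that tested Scarb2, 2 called it higher, DESeq2 (adjusted p = 0.0175) and edgeR without wild type replicate 2 (0.0309), and 6 did not, with adjusted p from 0.0537 to 0.129. Tpp1, a lysosomal peptidase, was also almost absent, with 6, 1 and 1 counts in wild type and 32, 5 and 2 in SKO.

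**Figure D2:**
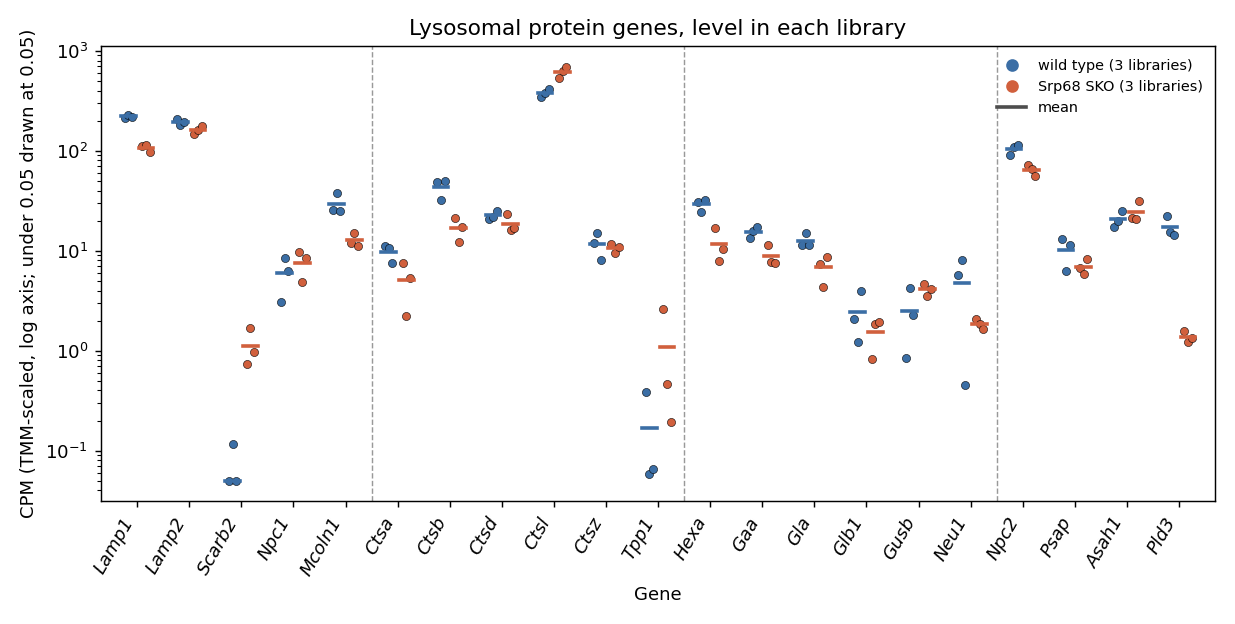
TMM-scaled CPM (log axis) of the 21 lysosomal genes in each of the 3 wild type (blue) and 3 SKO (red) libraries, with bars at the group means and dashed lines between roles. Lamp1, Mcoln1, Ctsb, Hexa, Gaa, Npc2 and Pld3 show SKO points under all wild type points, as do Lamp2, Ctsa and Gla, which did not pass. Ctsl and Scarb2 show them above, and Scarb2 and Tpp1 lie near the floor.

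The proteases moved in opposite directions. Ctsl (chromosome 13, 64359337 to 64370890, minus strand), the cysteine protease cathepsin L, rose and was already the most abundant lysosomal member in CPM: 348, 381 and 414 CPM in wild type and 531, 630 and 695 CPM in SKO. All 3 SKO libraries were above all wild type libraries (log2 fold change 0.70, SE 0.11; edgeR adjusted p = 0.000437). SKO replicate 3 had the highest value. It is the library with the raised macrophage marker sum, and without it the Ctsl log2 fold change was 0.61 (edgeR adjusted p = 0.00325). With library totals in place of TMM it was 0.43 (0.0043).

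Ctsb, cathepsin B, a related cysteine protease, fell from 49.0, 32.1 and 50.2 CPM to 21.5, 12.2 and 17.3 CPM. The groups did not overlap (log2 fold change −1.36, SE 0.24; edgeR adjusted p = 0.000795). Counts of Ctsb per 100 counts of Ctsl in the same library, a ratio that needs no scaling between libraries, were 14.1, 8.43 and 12.1 in wild type and 4.05, 1.94 and 2.49 in SKO. This ratio, like the others given below, was chosen after the values were seen. Whether the counting used strand is not stated in the labels. Exons of several members overlap those of other annotated genes on either strand: 26.8% of the exon length of Ctsl (largest overlap with Gm47123), 17.4% of Ctsa (Pltp), 12.8% of Ctsb (Fdft1), 12.8% of Hexa (Tmem202), 11.8% of Atp6v0b (Gm12841) and 9.31% of Lamp1 (Grtp1). Each gene named in brackets lies on the opposite strand. Reads of such a pair cannot be told apart where they overlap without strand.

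The other proteases gave no call. Ctsa, the carboxypeptidase that protects neuraminidase and beta-galactosidase, was at 11.2, 10.7 and 7.6 CPM in wild type and 7.57, 2.23 and 5.39 CPM in SKO. Its groups were apart by a narrow margin (log2 fold change −0.95, SE 0.41; edgeR adjusted p = 0.0981). Ctsd, the main aspartic protease cathepsin D, was at 20.8, 21.8 and 25.1 CPM against 23.1, 16.0 and 17 CPM, with SKO replicate 1 inside the wild type range (log2 fold change −0.27, SE 0.22). Ctsz, an exopeptidase, had a log2 fold change of −0.13 (SE 0.29). For Ctsd and Ctsz the sign turned after correction for GC content and length (0.21 and 0.25). Of the Ctsd exon length, 34.4% overlaps other annotated genes, and the largest overlap is with Gm49369 on the same strand.

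Among the glycosidases, 2 of 6 fell and 4 did not pass. Hexa, the alpha subunit of beta-hexosaminidase that degrades GM2 ganglioside, was at 30.4, 24.6 and 32.5 CPM in wild type and at 16.9, 7.91 and 10.5 CPM in SKO. Its SKO mean was 40.3% of wild type (log2 fold change −1.31, SE 0.27; edgeR adjusted p = 0.0025). Gaa, the acid alpha-glucosidase that breaks down glycogen, was at 13.4, 15.9 and 17.4 CPM and at 11.5, 7.72 and 7.6 CPM. This call sat close to the threshold (log2 fold change −0.80, SE 0.27; edgeR adjusted p = 0.0416), and it was lost without wild type replicate 1 (0.0521), 2 (0.0962) or 3 (0.109), without SKO replicate 2 (0.144) or 3 (0.139), with no filter (0.0525) and with correction for GC content and length, alone (−0.33; 0.401) or with a replicate block (−0.33; 0.433).

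Gla, alpha-galactosidase A, just missed the threshold at 11.3, 14.9 and 11.5 CPM against 7.32, 4.37 and 8.76 CPM, with separate groups (log2 fold change −0.88, SE 0.32; edgeR adjusted p = 0.0517). It passed with a filter of 5 CPM (0.0367), limma-voom (0.0426) and library totals (0.0156), and without SKO replicate 3 (0.0438). Neu1, the lysosomal sialidase, was at 5.67, 8.05 and 0.458 CPM in wild type and at 2.06, 1.86 and 1.64 CPM in SKO. Wild type replicate 3 alone was under the SKO values, and without it Neu1 passed (−1.88; 0.00945). Glb1, beta-galactosidase, and Gusb, beta-glucuronidase, stayed at or below 4.69 CPM in every library, with log2 fold changes of −0.66 (SE 0.68) and 0.73 (SE 0.57).

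Of the genes for lipid handling and nucleic acid breakdown, Pld3 showed the steepest decrease of all members. Pld3 (chromosome 7, 27532000 to 27553218, minus strand, GRCm38) encodes an exonuclease that digests single-stranded nucleic acids in lysosomes. It had 347, 267 and 221 counts in wild type and 19, 13 and 14 in SKO. In CPM these were 22.4, 15.5 and 14.5 against 1.56, 1.21 and 1.35, so SKO libraries held on average 7.88% of the wild type level (log2 fold change −3.65, SE 0.34; edgeR adjusted p = 6.37e-06). This log2 fold change stayed between −3.91 and −3.04 under every alternative tried, and each called it. Its transcripts had the highest GC content of the 37 genes, 59.5%.

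Npc2, the soluble cholesterol carrier that hands its cargo to NPC1, was at 90.5, 109 and 114 CPM in wild type and at 72.2, 65.3 and 55.4 CPM in SKO. All SKO values were lower (log2 fold change −0.70, SE 0.14; edgeR adjusted p = 0.00226). Psap, the precursor of the saposins that assist sphingolipid hydrolases, was at 13.2, 6.26 and 11.3 CPM against 6.75, 5.86 and 8.18 CPM, with overlap (log2 fold change −0.56, SE 0.34). Asah1, acid ceramidase, was at 17.3, 19.9 and 25.0 CPM against 21.2, 20.7 and 31.8 CPM, also with overlap (0.24, SE 0.23).

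Summed over each role, levels in CPM did not move together. The 5 membrane protein genes summed to 449.5 ± 7.99 CPM in wild type and 291.5 ± 7.24 CPM in SKO, the 6 glycosidases to 66.9 ± 2.82 and 35.0 ± 8.02, and the 4 genes for lipids and nucleic acids to 153 ± 11.1 and 97.2 ± 4.38 (SD, n = 3). The 6 proteases summed to 469 ± 33.1 and 671 ± 74.0 CPM, a sum dominated by Ctsl. Ctsl made up 31.7, 33.4 and 35.1% of all lysosomal member counts in wild type and 51.8, 57.9 and 59.3% in SKO. With Ctsl included, the 21 genes together stood at 1138 ± 42.6 and 1095 ± 72.8 CPM (two-sided exact permutation p = 0.4, where 3 against 3 allows no p below 0.1). As shares of unscaled library totals the same genes held 0.124 ± 0.00447% and 0.0996 ± 0.00266%, with no overlap (exact permutation p = 0.1), so this comparison depended on the scaling.

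V-ATPase genes were expressed at higher levels than lysosomal ones. Per kilobase of exon, a scale that allows genes to be compared, the wild type median was 37 CPM per kb over the 16 V-ATPase genes and 5.96 over the 19 tested lysosomal genes. The top was held by Atp6v1g1 (661 CPM per kb), Atp6v1f (355) and Atp6v0b (227), and among lysosomal genes by Lamp1 (82.4) and Ctsl (58.7). Exon length here is the union of all annotated exons, which understates the level of genes with rarely used long exons. The coefficient of variation between wild type libraries had a median of 7.97% for V-ATPase and 19.8% for lysosomal genes, so smaller differences were detectable in the former.

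Within V0, the proton-conducting sector, 3 of 6 genes fell, 1 rose and 2 did not pass. Of the 2 accessory subunit genes, 1 fell and 1 did not pass. The ring through which protons move is built of c and c″ subunits. Atp6v0c, the gene of subunit c, was at 24.8, 20.1 and 20.4 CPM in wild type and at 12.6, 6.79 and 4.91 CPM in SKO. The groups were separate and the SKO libraries differed among themselves (SKO mean 37.2% of wild type; log2 fold change −1.42, SE 0.32; edgeR adjusted p = 0.00408). A processed copy, Atp6v0c-ps2, held 78, 36 and 53 counts in wild type and 32, 21 and 12 in SKO, so the counts of subunit c are uncertain.

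Atp6v0b, the gene of c″, fell from 458, 404 and 536 CPM to 279, 273 and 269 CPM. The 3 SKO values were nearly equal and all under the lowest wild type value (log2 fold change −0.77, SE 0.11; edgeR adjusted p = 0.000184). After correction for GC content and length its log2 fold change was −0.25 and it was not called (0.177). Atp6v0d1, subunit d, which couples the ring to the central stalk, was at 67.7, 61.7 and 58.8 CPM against 39.1, 33.2 and 52.2 CPM (−0.60, SE 0.18; edgeR adjusted p = 0.02). SKO replicate 3 came close to the wild type range, and without it the log2 fold change was −0.80 (0.00701). The call was lost without wild type replicate 1 (0.0775), without SKO replicate 1 (0.0642) or 2 (0.109) and after correction for GC content and length (−0.32; 0.196).

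The a subunits place the pump in different membranes and form the path for protons, and 1 of the 2 tested rose. Atp6v0a1 (chromosome 11, 101009452 to 101063719, plus strand) rose from 14.7, 16.6 and 16.4 CPM to 30.4, 28.7 and 28.5 CPM. Both groups were tight, and the SKO mean was 184% of wild type (log2 fold change 0.88, SE 0.19; edgeR adjusted p = 0.00373). Atp6v0a2, the isoform known from the Golgi, was at 5.35, 5.45 and 3.54 CPM against 6.25, 5.49 and 4.81 CPM, with overlap (0.21, SE 0.37; edgeR adjusted p = 0.728). Atp6v0e, a small membrane subunit, was at 127, 113 and 148 CPM against 136, 144 and 186 CPM (0.27, SE 0.14; edgeR adjusted p = 0.181).

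The accessory subunits parted as well. Atp6ap1, a glycoprotein needed for V-ATPase assembly in the ER, fell from 29.6, 30.6 and 27.1 CPM to 12.9, 10.1 and 11 CPM. Every SKO value was less than any wild type value (SKO mean 39.0% of wild type; log2 fold change −1.36, SE 0.21; edgeR adjusted p = 0.000305). Atp6ap2, also called the prorenin receptor, was at 181, 147 and 189 CPM against 163, 171 and 204 CPM (0.05, SE 0.13). Both genes lie on the X chromosome, as do Lamp2 and Gla. Counts of Atp6ap1 per 100 counts of Atp6ap2 were 16.3, 20.9 and 14.3 in wild type and 7.94, 5.95 and 5.39 in SKO.

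**Figure D3:**
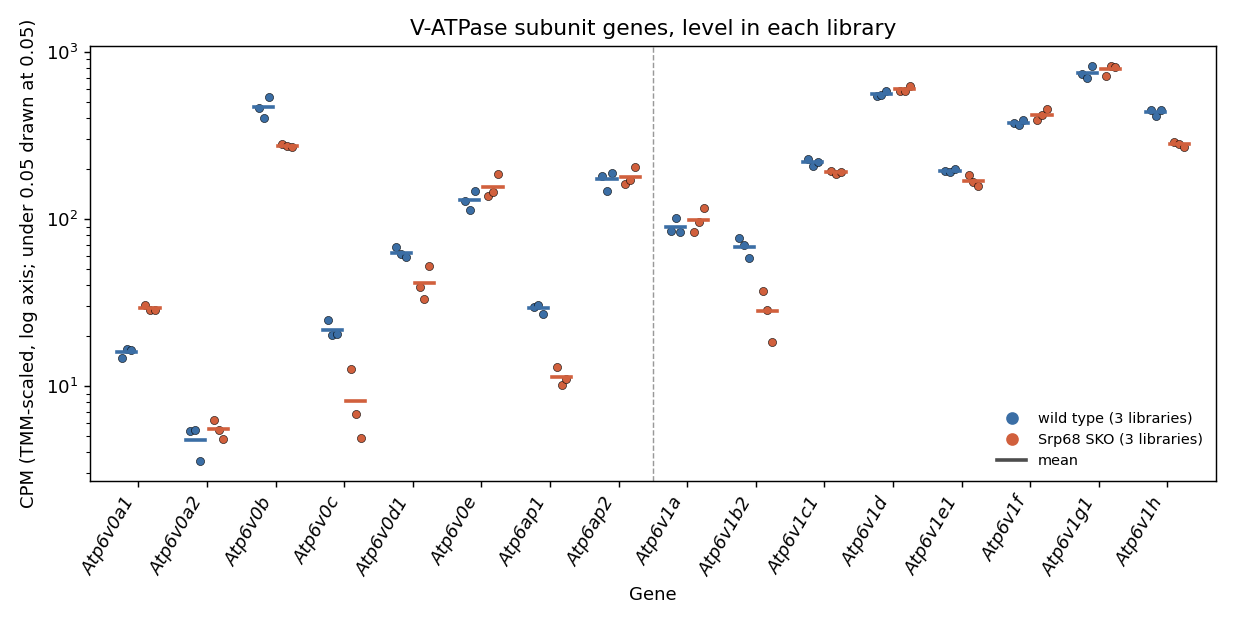
TMM-scaled CPM (log axis) of the 16 V-ATPase genes in each of the 3 wild type (blue) and 3 SKO (red) libraries, with bars at the group means; the dashed line parts V0 and accessory subunits (left) from V1 (right). Atp6v0b, Atp6v0c, Atp6v0d1, Atp6ap1, Atp6v1b2 and Atp6v1h have all SKO points under all wild type points, and Atp6v0a1 has them above. The same holds for Atp6v1c1 and Atp6v1e1 (under) and Atp6v1f (above), which did not pass.

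Within V1, the ATP-hydrolysing sector, 2 of 8 genes fell, none rose and 6 did not pass. ATP is bound by a hexamer of alternating A and B subunits. Atp6v1b2 (chromosome 8, 69088646 to 69113711, plus strand), the gene of the B subunit, was at 76.6, 69.7 and 58.1 CPM in wild type and at 37.1, 28.4 and 18.4 CPM in SKO (SKO mean 41.0% of wild type; log2 fold change −1.28, SE 0.22; edgeR adjusted p = 0.000617). Atp6v1a, the gene of the A subunit, was at 84.6, 102 and 84.0 CPM and at 83.9, 96.1 and 117 CPM, with overlapping groups (0.14, SE 0.15; edgeR adjusted p = 0.533). Counts of Atp6v1b2 per 100 counts of Atp6v1a were 90.6, 68.7 and 69.1 in wild type and 44.2, 29.5 and 15.7 in SKO, so the transcripts of the 2 partners changed unequally.

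Atp6v1h, the gene of the H subunit that regulates the coupling of both sectors, fell from 447, 410 and 449 CPM to 288, 280 and 270 CPM. The spread within each group was small against this gap (log2 fold change −0.64, SE 0.10; edgeR adjusted p = 0.00022). Both V1 decreases held under all alternatives tried. They were also as large or larger after correction for GC content and length (−1.35 for Atp6v1b2 and −0.93 for Atp6v1h), and the transcripts have a GC content of 47.2% and 45.1%, under the median of 49.6% over all tested genes. Fold changes over all genes fell as GC content rose, with a median log2 fold change of 0.07 between 45 and 50%. The corrected values depend on the trend that was removed, so they are no separate test.

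The subunits of the V1 stalks stayed within narrow limits. Atp6v1d, of the central rotor, was at 540, 555 and 582 CPM against 581, 584 and 622 CPM, and Atp6v1f, its partner, at 377, 364 and 389 CPM against 390, 418 and 453 CPM. Atp6v1g1, of the peripheral stalks, was the most abundant member at 735, 693 and 821 CPM against 720, 826 and 807 CPM. Their log2 fold changes were 0.09, 0.16 and 0.06, each with a standard error between 0.09 and 0.10. A copy of Atp6v1g1, Gm13453, held at most 43 counts in a library. With library totals in place of TMM they were −0.17, −0.11 and −0.20, without a call.

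Atp6v1e1, the other peripheral stalk subunit, was at 193, 190 and 200 CPM against 184, 165 and 158 CPM, and Atp6v1c1, which joins the stalks to V0, at 229, 208 and 219 CPM against 194, 185 and 190 CPM. In both, every SKO library was lower, by small amounts that did not pass (−0.20 each; edgeR adjusted p = 0.178 and 0.157). Both passed with library totals (−0.46 each; 0.00654 and 0.0031). In sum, V1 genes stood at 2693 ± 105 CPM in wild type and 2566 ± 80.0 CPM in SKO (exact permutation p = 0.2), and V0 and accessory genes at 902 ± 101 and 704 ± 49.2 CPM (p = 0.1 in the same exact test). The latter sum was dominated by Atp6v0b, with means of 466 CPM in wild type and 274 CPM in SKO. Of the 8 V0 and accessory genes, 4 had a negative log2 fold change and 4 a positive one.

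**Figure D4:**
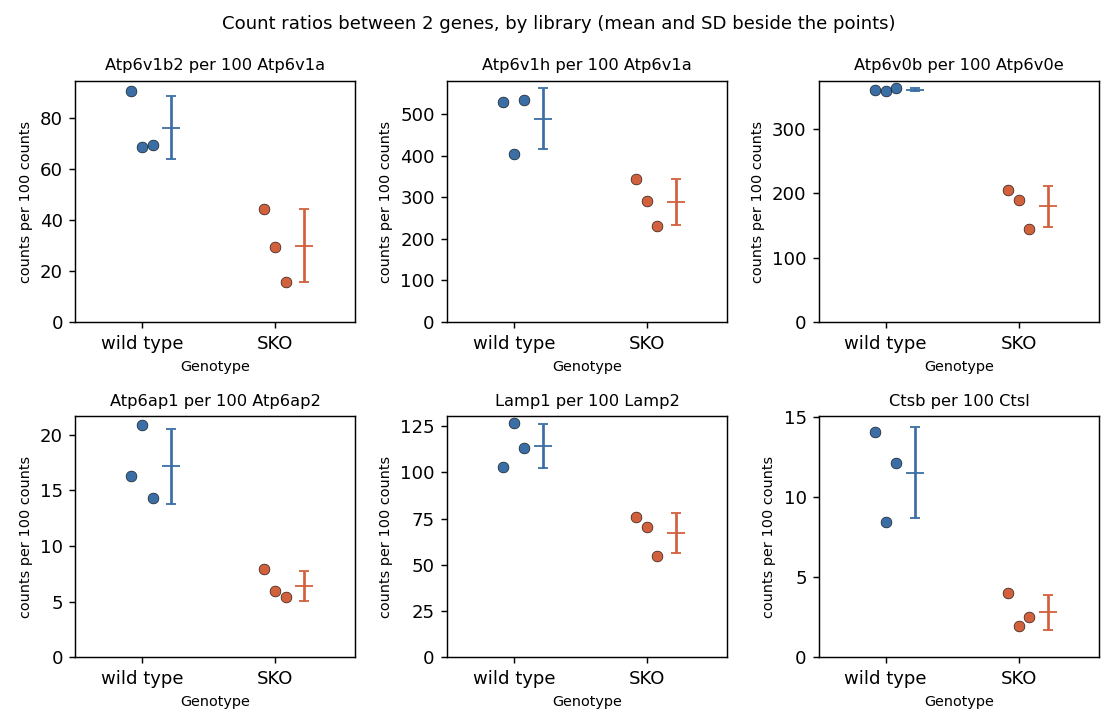
Counts of 1 gene per 100 counts of another in the same library, for 6 pairs, in wild type (blue) and SKO (red), with the mean and SD of 3 libraries beside the points; all vertical axes start at 0. In each pair the 3 SKO libraries lie under the 3 wild type libraries, from 359 to 363 down to between 145 and 205 for Atp6v0b per 100 Atp6v0e.

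These ratios do not depend on how libraries were scaled to each other, but they are not corrected for GC content and length. After that correction the log2 fold changes were −0.94 for Lamp1 and −0.73 for Lamp2 (−1.03 and −0.26 in the main test). For Atp6v0b and Atp6v0e they were −0.25 and 0.35, for Atp6ap1 and Atp6ap2 −1.06 and −0.15. For Ctsb and Ctsl they were −1.19 and 0.66, and for Atp6v1b2, Atp6v1h and Atp6v1a −1.35, −0.93 and 0.07. Lamp1 counts per 100 Lamp2 counts were 103, 127 and 113 in wild type and 75.8, 70.3 and 55 in SKO, and Atp6v1h counts per 100 Atp6v1a counts were 528, 404 and 535 against 343, 292 and 231. As shares of all V-ATPase counts, Atp6v0b took 12.9 ± 1.10% in wild type and 8.39 ± 0.454% in SKO, Atp6v1h 12.1 ± 0.315% and 8.56 ± 0.598%, and Atp6v0a1 0.443 ± 0.0421% and 0.895 ± 0.0639% (SD, n = 3).

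Isoforms of the V-ATPase known mainly from kidney, bone or other specialised cells were low. Of 9 such genes, 2 passed the filter and neither was called. Atp6v1c2 had 143, 108 and 110 counts in wild type and 55, 49 and 53 in SKO (edgeR adjusted p = 0.159), and Atp6v0e2 had 10, 50 and 71 counts against 24, 10 and 4 (0.262). Atp6v1e2, an E subunit isoform known from testis, had 0 counts in all 6 libraries. Atp6v0a4, Atp6v0d2 and Atp6v1g3 had at most 3 counts in any library. Of 7 assembly and RAVE genes, which help V1 join V0, Rogdi fell (48.3 ± 11.5 to 17.8 ± 8.69 CPM, SD, n = 3; edgeR adjusted p = 0.00209) and Dmxl1 rose (171 ± 26.8 to 217 ± 7.41 CPM; 0.0492, and 0.0891 without SKO replicate 3), while Vma21, Tmem199, Ccdc115, Dmxl2 and Wdr7 did not pass.

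The machinery that sorts hydrolases to lysosomes held 5 decreases among 12 tested genes and no increase, where 14.4% of all tested genes were lower and 14.1% higher. Gnptg, the gamma subunit of the enzyme that starts the mannose 6-phosphate tag, fell from 92.3, 76.8 and 69.2 CPM to 24.7, 22.6 and 16.4 CPM (log2 fold change −1.90; edgeR adjusted p = 8.81e-06). Without SKO replicate 3, 3 of the 5 were called, while decreases over all tested genes went from 1937 to 1449. Ap1m1, a subunit of the AP-1 clathrin adaptor, fell from 133 ± 26.0 to 49.1 ± 8.19 CPM (SD, n = 3; 3.63e-05), and M6pr, the cation-dependent mannose 6-phosphate receptor, from 124 ± 23.0 to 80.3 ± 7.12 CPM (0.00546). The median log2 fold change of the 12 genes was −0.52.

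Other lysosomal hydrolases also counted only decreases among their calls, 9 of 26 tested, beside 14.4% lower and 14.1% higher over all tested genes. Their median log2 fold change was −0.62. Without SKO replicate 3, 6 of these 9 were called and no other, while decreases over all tested genes went from 1937 to 1449. Lgmn, the asparaginyl endopeptidase legumain, fell from 26.7 ± 9.17 to 6.10 ± 1.55 CPM (SD, n = 3; edgeR adjusted p = 0.000176), Hyal2, a hyaluronidase, from 14.1 ± 7.22 to 2.03 ± 0.348 CPM (0.000329), and Gm2a, the GM2 activator that works with beta-hexosaminidase, from 33.8 ± 4.61 to 12.3 ± 3.95 CPM (0.000508). Other lysosomal membrane proteins gave 1 decrease and 2 increases among 18, beside the same shares over all tested genes. Hgsnat, an acetyltransferase of heparan sulfate breakdown, fell (23.7 ± 1.5 to 8.50 ± 1.02 CPM; 0.000316). Ctns, the exporter of cystine from lysosomes, rose from 3.35, 3.30 and 2.03 CPM to 11.3, 8.00 and 7.12 CPM (log2 fold change 1.6; 0.00601), and Slc38a9, an arginine-sensing transporter, from 33.1 ± 2.34 to 49.2 ± 7.35 CPM (0.0193).

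Among 13 tested genes for fusion and positioning of lysosomes, 4 fell and 1 rose. Arl8b, the small GTPase that moves lysosomes along microtubules, fell from 99.4 ± 9.60 to 53.4 ± 4.18 CPM (SD, n = 3; edgeR adjusted p = 0.000227), Rab7 from 75.4 ± 8.22 to 37.6 ± 5.34 CPM (0.000321) and the tethering subunit gene Vps41 from 87.1 ± 13.0 to 58.2 ± 7.52 CPM (0.0112), while Borcs7 rose from 76.7 ± 9.03 to 102 ± 11.2 CPM (0.0359, and 0.16 without SKO replicate 3). In all, 20 of the 80 tested genes of these accompanying lists were lower and 4 higher, beside the 14.4% and 14.1% of all tested genes. Without SKO replicate 3, 15 of 85 tested were lower and 2 higher, 14 and 2 of them shared with the main test. In that fit 1449 of all 14509 tested genes were lower and 1418 higher, so calls fell over all genes too.

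The transcription factors of the CLEAR network were scarce. Tfeb had 22, 2 and 4 counts in wild type and 2, 2 and 1 in SKO, too few to test. Tfe3 was at 2.51, 2.67 and 2.88 CPM against 4.12, 3.91 and 3.18 CPM (log2 fold change 0.47, SE 0.46), and Mitf at 1.48, 1.51 and 3.73 CPM against 4.69, 3.91 and 7.99 CPM (1.30, SE 0.51; edgeR adjusted p = 0.0741). All SKO libraries were higher for both, but neither passed. Tfec had no count in any library.

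The fold changes of the members followed transcript GC content, as did those of all tested genes. Across the 35 members, Pearson's r between GC content and log2 fold change was −0.50 and Spearman's rho −0.47. Over the 13452 tested genes with a known GC content they were −0.31 and −0.35, and all values share the same libraries. Of the 9 members with a GC content of at least 55%, 6 were lower (23.4% of all such genes were), with a median log2 fold change of −1.22 against −0.51 for all genes in that band. Of the 10 members between 50 and 55%, 4 were lower (18.1% of all), and of the 13 between 45 and 50%, 3 were lower and 2 higher (11.5% and 15.1%). None of the 3 members under 45%, Lamp2, Atp6ap2 and Atp6v1d, was called in the main test. When the trends with GC content and length were taken out within each library, 11 members were lower, 10 of them among the 13, and both increases remained. The difference between the median of the members and that of all genes was then −0.19 in place of −0.53. Without this correction it also varied, and was −0.25 with DESeq2, −0.28 without wild type replicate 3 and −0.31 without wild type replicate 1 or with no filter. The part of GC content in these differences was not tested further.

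**Figure D5:**
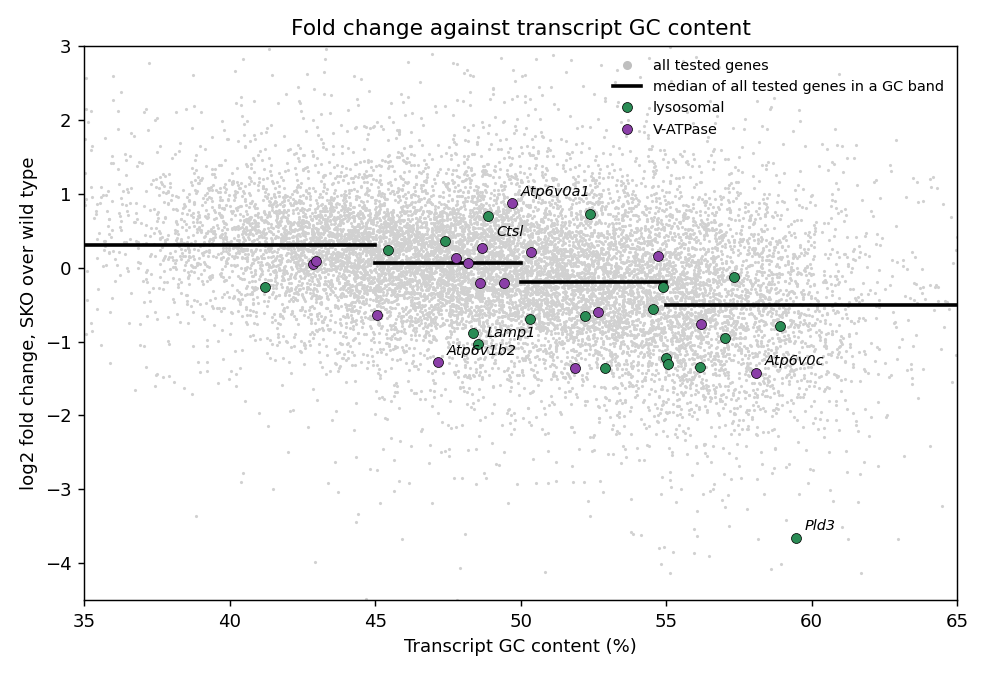
Log2 fold change (vertical) against mean transcript GC content in percent (horizontal) for all tested genes within the axes (grey), the 19 lysosomal (green) and the 16 V-ATPase genes (purple), with black lines at the median of all tested genes in 4 GC bands. The black lines step down from 0.31 under 45% to −0.51 at 55% and above, and Pld3 lies far under its band while Atp6v1b2 lies low at a GC content of 47.2%.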

How the data were processed

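The values deposited by the authors are whole-number counts per Ensembl gene without normalization. The submitters' processing notes name FastQC, Trim Galore 0.6.4, HISAT2 2.0.5 and the builds GRCm38 and mm10; the labels used here state no counting tool, strand setting or annotation. Knockout columns read CKO where the labels write SKO and were matched by genotype and replicate number. The analysis used R 4.3.3 and edgeR 4.0.16: filterByExpr, TMM scaling, and glmQLFit with glmQLFTest over all 6 libraries, two-sided, with genotype alone in the model. CPM is TMM-scaled, and standard errors are from the same fit. At this depth 3 counts equalled 0.174 to 0.289 CPM, which covers counting error only, since no molecular identifiers separate PCR copies. The script was tested on simulated data. GENCODE vM21 gave symbols, exon lengths and transcript GC content (99.8% of tested genes). Near-identical copies were searched with blastn (at least 95% identity over 200 bases). The GC content and length correction used loess trends (span 0.3) per library as offsets. Other alternatives were DESeq2 1.42.0 and its size factors, upper-quartile scaling, library totals, limma-voom (limma 3.58.1), filters, a replicate block and each library left out. All 37 members are named; of each accompanying list, up to 3 called genes in each direction by smallest p, and the 4 TFE factors. Genes beyond this rule were named after their values were seen. Members and lists were chosen with earlier results of these data known. A planned print of protein starts was not made.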

Additional observations from a re-analysis of the deposited data

How the results depend on the processing

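Under the 16 alternatives the number of lower members stayed between 11 and 18 (13 in the main test) and the number of higher members between 2 and 3, with 18 lower under library totals. Leaving out 1 library gave 11 to 13 lower and 2 to 3 higher. Without SKO replicate 3, the library with the raised macrophage marker sum, 13 were lower (12 of them among the main 13) and 2 higher. Library totals moved the median of all genes from −0.03 to −0.29 and that of the members from −0.56 to −0.82, a distance to all genes of −0.53 in both. Over all alternatives the median of the members ranged from −0.82 to −0.23 and its distance to all genes from −0.54 to −0.18. The ratio of summed CPM of the members, SKO over wild type, was 0.922 with TMM scaling and 0.769 with library totals. The replicate numbers did not pair the libraries (correlations of deviations 0.02, −0.05 and 0.04), and with a replicate block 13 members were lower and 2 higher. The block combined with the GC content and length correction gave 11 lower and 3 higher, the third being Atp6v0e (log2 fold change 0.35, edgeR adjusted p = 0.0268). With DESeq2 (adjusted p = 0.0175) or without wild type replicate 2 (edgeR adjusted p = 0.0309) the third was Scarb2, which the main test left out. No called member changed sign under any alternative. Members without a call that changed sign did so with library totals (Asah1 −0.02, Atp6v0a2 −0.05, Atp6ap2 −0.21, Atp6v1a −0.14, Atp6v1d −0.17, Atp6v1f −0.11, Atp6v1g1 −0.20), with the GC content and length correction (Ctsd 0.21, Ctsz 0.25, Atp6ap2 −0.15, Atp6v1d −0.15, Atp6v1g1 −0.07) and with that correction and the replicate block (Ctsd 0.21, Ctsz 0.28, Atp6ap2 −0.15, Atp6v1d −0.15, Atp6v1g1 −0.07); the cause was not tested. Leaving out 1 library moved Ctsz between −0.33 and 0.10, Atp6ap2 between −0.05 and 0.13 and Atp6v1a between 0 and 0.24 (log2 fold change). Without SKO replicate 3, a choice made after seeing the data, calls went from 9 to 6 lower among other hydrolases, from 5 to 3 lower in sorting, from 4 to 3 lower and 1 to 0 higher in fusion and positioning, from 1 to 2 lower among other membrane proteins, from 1 to 0 higher in assembly and from 4 to 2 higher over these lists together. Over all tested genes, calls went from 1937 to 1449 lower and from 1901 to 1418 higher.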
